A study of Mus musculus with 6 samples.

Results

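Oligodendrocyte precursor genes mark the dividing glial progenitors from which myelin-forming oligodendrocytes arise in the adult brain. The members were fixed by name: Pdgfra, Cspg4, Olig1, Olig2, Sox10, Gpr17, Neu4, Ptprz1, Nkx2-2 and Lhfpl3, without the precursor proteoglycans Bcan and Vcan. Every probe set annotated with 1 of these symbols and no other was taken, which gave 17 of the 45037 probe sets tested and 9 of the 10 genes. No probe set was annotated to Neu4, a sialidase that removes sialic acid from glycans, so it is named only. For each gene the probe set with the highest mean over all arrays stands for the gene, as it does for the 18193 genes of the array.

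The study used whole mouse brain on one-colour arrays and, by its title, asks what losing Pofut1 does to neural progenitors of adult mice. All mice were C57/Bl6 and 2 months old, and each of 3 groups had 2 arrays. NestinCre control brains were Nestin cre with wild type Pofut1. Flox control brains were Pofut1flox/flox without Cre, and knockout brains were Nestin cre/Pofut1flox/flox. The Nestin-driven Cre acts in neural progenitors and their descendants, so neurons and astrocytes can carry the deletion as well as the oligodendrocyte lineage. How the RNA samples relate to single animals is not stated in the labels.

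Precursors divide and migrate under platelet-derived growth factor, which signals through the receptor Pdgfra. The transcription factors Olig2, Olig1, Sox10 and Nkx2-2 set the lineage and later its differentiation, and Gpr17 marks the step at which a precursor commits to becoming an oligodendrocyte. Notch signalling, which needs the O-fucose that Pofut1 places on its receptors, is known to hold precursors back from that step through Hes repressors. Several members are not particular to precursors. Cspg4 (NG2) is also made by pericytes, and Pdgfra by fibroblasts of the meninges and vessels. Ptprz1 is also made by astrocytes and neural stem cells, and Sox10 by the whole oligodendrocyte lineage. Olig1 and Olig2 act in later differentiation too, so neither is taken here as particular to precursors.

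The promoters of the lineage factors Olig2 and Nkx2-2 and of the receptor gene Pdgfra are shown because Olig2 and Pdgfra give the patterns described below, and Nkx2-2 is the other lineage factor with an entry. The set of promoter sequences used (RefSeq, GRCm38.p6) held 7 of the 10 members and lacked Olig1, Sox10 and Gpr17. Each sequence is the 250 bases before the annotated start, 5′ to 3′ on the gene's own strand: Olig2 at chr16:91225300-91225549 on the plus strand, Nkx2-2 at chr2:147186403-147186652 on the minus strand and Pdgfra at chr5:75152001-75152250 on the plus strand. Capitals mark matches on either strand to 4 short motifs: ACAAT, the core bound by SOX factors, CANNTG, the E-box of basic helix-loop-helix factors such as Olig1 and Olig2, TGGGAA, the core bound by the Notch partner RBPJ, and TATAAA, the TATA box. No marked motif overlaps another in these 3 sequences.
Olig2: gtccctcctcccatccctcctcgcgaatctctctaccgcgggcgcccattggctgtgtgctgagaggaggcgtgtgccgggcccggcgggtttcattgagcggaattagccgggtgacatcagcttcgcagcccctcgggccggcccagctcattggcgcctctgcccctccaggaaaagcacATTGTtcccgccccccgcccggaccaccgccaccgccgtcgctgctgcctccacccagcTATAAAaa
Nkx2-2: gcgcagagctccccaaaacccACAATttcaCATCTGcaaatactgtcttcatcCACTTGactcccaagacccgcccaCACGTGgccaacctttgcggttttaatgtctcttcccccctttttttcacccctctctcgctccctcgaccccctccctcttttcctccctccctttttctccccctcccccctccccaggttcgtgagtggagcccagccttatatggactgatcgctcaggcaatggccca
Pdgfra: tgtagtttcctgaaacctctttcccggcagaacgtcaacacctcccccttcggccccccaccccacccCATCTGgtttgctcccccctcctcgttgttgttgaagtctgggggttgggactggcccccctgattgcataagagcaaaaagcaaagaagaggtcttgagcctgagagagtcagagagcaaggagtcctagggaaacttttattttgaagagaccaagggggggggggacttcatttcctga

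Olig2 held 1 SOX core, which began 67 bases before the start, and a match to the TATA box, which began 8 bases before it. Nkx2-2 held 1 SOX core and 3 E-boxes, and Pdgfra held 1 E-box, which began 182 bases before its start. Among the 7 promoters the SOX core was in 4 and the E-box in 4, against 27.7% and 66.2% of all 32851 windows of this length. The RBPJ core was in 1 of the 7, that of Neu4, against 21.6% of all windows, and the TATA box in 1, against 12.4%. These counts describe letters in a short window and not bound sites.

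Values are log2 of the deposited intensity, and 1 unit is a doubling. Array medians lay between 7.32 and 7.36. The correlation of whole arrays was 0.993 to 0.995 within a group and 0.985 to 0.995 between groups. All 10 neuron markers had means of 10.8 to 13.1, far above the median probe set at 7.34. The brightest Pofut1 probe set was at 9.25 and 9.44 in knockout brain and at 9.77 to 9.95 in the 4 controls, a log2 difference of -0.50 (SE 0.08, limma adjusted p = 0.211). The dimmer Pofut1 probe sets, at means of 6.68 and 5.91, were also below all controls. They differed by -0.32 (SE 0.08, limma adjusted p = 0.286) and -0.18 (SE 0.07, limma adjusted p = 0.460). The labels do not place these probe sets inside or outside the floxed segment, so they may not check the deletion. Xist and Eif2s3y levels were those of male brain in NestinCre control replicate 2 and knockout replicate 1, and of female brain in the remaining 4 arrays. The pituitary hormone gene Prl was at 7.28 and 9.58 in Flox control against 5.39 to 5.77 elsewhere.

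Both knockout arrays read higher than every control array for Gpr17, Olig1 and Olig2, 3 of the 9 measured genes, against 7.23% of all genes. Pdgfra, Cspg4, Sox10, Ptprz1, Nkx2-2 and Lhfpl3 overlapped with the controls by their brightest probe sets. The differences were modest, at 1.53-fold for Gpr17, 1.24-fold for Olig2 and 1.21-fold for Olig1. For Olig2 the 95% interval of the log2 difference, -0.05 to 0.66, included no change. None of the 17 probe sets passed the limma test after adjustment over all probe sets, which called 0.0155% of them in this comparison. In bulk RNA, more cells that make these transcripts, at whatever stage of the lineage, and more transcript per cell cannot be told apart.

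**Figure D1:**
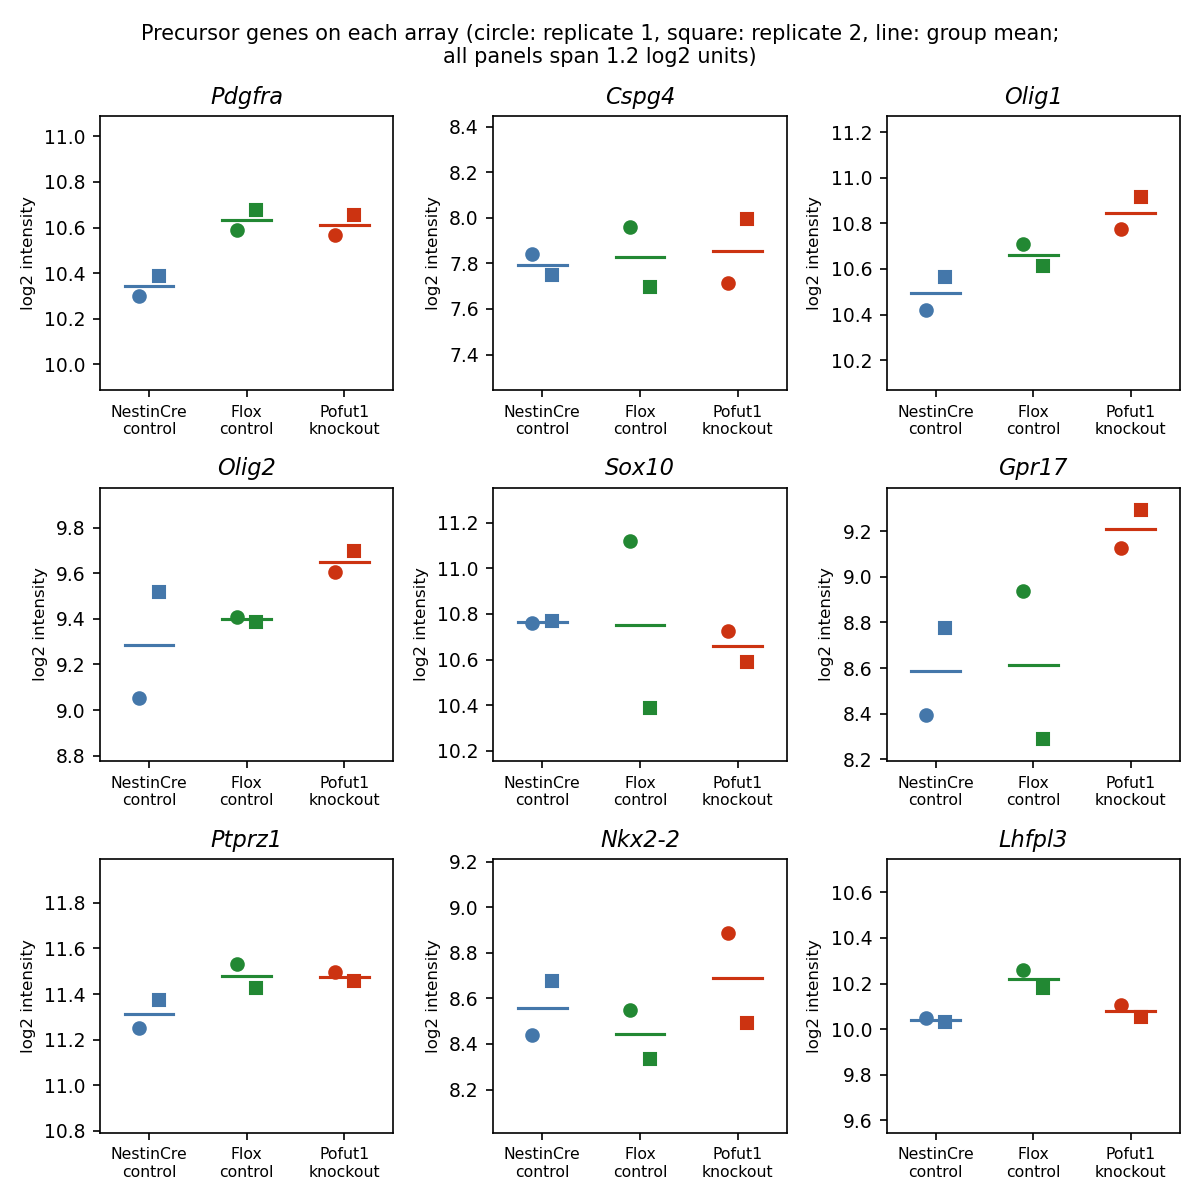
Log2 intensity (vertical axis) of the brightest probe set of each of the 9 measured precursor genes on each array, by genotype group (horizontal axis). Circles are replicate 1, squares replicate 2 and lines group means; both knockout points lie above all 4 control points for Olig1, Olig2 and Gpr17, and Pdgfra is lowest in NestinCre control.

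The basic helix-loop-helix factors come first. Olig2, which specifies the lineage, stood at 9.05 and 9.52 in NestinCre control, 9.41 and 9.38 in Flox control, and 9.60 and 9.70 in knockout. Both knockout arrays were above all controls, with NestinCre control replicate 2 the closest. The knockout mean exceeded that of both controls by 0.31 (SE 0.14, 95% interval -0.05 to 0.66, limma adjusted p = 0.509). The 2 NestinCre control arrays were 0.47 apart, which is more than that difference.

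Olig1, its neighbour and partner in differentiation and myelin repair, was at 10.42 and 10.57 in NestinCre control, 10.71 and 10.61 in Flox control, and 10.78 and 10.92 in knockout. The 3 groups were ordered NestinCre control, Flox control, knockout without overlap. Knockout exceeded both controls by 0.27 (SE 0.08, 95% interval 0.08 to 0.46), with the smallest unadjusted p of the 17 probe sets in this comparison, 0.0160, and a limma adjusted p of 0.334. Olig1 and Olig2 lie on chromosome 16 with 1 annotated gene between them, which is not protein-coding.

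Gpr17, an orphan receptor that peaks in committed precursors and must be switched off before myelination, had the largest difference of the members. Its values were 8.40 and 8.78 in NestinCre control, 8.94 and 8.29 in Flox control, and 9.13 and 9.29 in knockout. Both knockout arrays were highest, and the control arrays of each group were far apart, by 0.38 and 0.65. The knockout mean was 9.21 ± 0.12 (SD, n = 2) against 8.59 ± 0.27 (SD, n = 2) and 8.61 ± 0.46 (SD, n = 2). The difference was 0.61 (SE 0.22, 95% interval 0.05 to 1.17, limma unadjusted p = 0.0382 and adjusted p = 0.417). It exceeded those of 99.2% of all probe sets.

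Nkx2-2, a homeodomain factor that promotes differentiation of precursors, was at 8.44 and 8.67 in NestinCre control, 8.55 and 8.34 in Flox control, and 8.89 and 8.49 in knockout. Only knockout replicate 1 was above all controls. The difference of 0.19 (SE 0.15) was below the 0.39 between the knockout arrays, and without knockout replicate 1 it was -0.0061.

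Sox10, which drives myelin genes throughout the lineage, gave 10.76 and 10.77 in NestinCre control, 11.12 and 10.39 in Flox control, and 10.73 and 10.59 in knockout. The Flox control arrays were the highest and the lowest of all 6. The same 2 arrays were the extremes for each of the 3 Sox10 probe sets, with gaps of 0.74, 0.61 and 0.35. Differences between knockout and both controls were -0.10 (SE 0.21), -0.09 (SE 0.18) and 0.05 (SE 0.11). The 95% interval of the brightest ran from -0.64 to 0.44, so neither a rise nor a fall within that range can be excluded here. Without Flox control replicate 1 the sign turned, to 0.08.

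Among surface molecules, Pdgfra separated the controls from each other rather than knockout from both. Its brightest probe set read 10.30 and 10.39 in NestinCre control, 10.59 and 10.68 in Flox control, and 10.57 and 10.66 in knockout. NestinCre control was lowest, and the other groups overlapped. Knockout exceeded NestinCre control by 0.27 (SE 0.07, limma unadjusted p = 0.0122 and adjusted p = 0.658). Against Flox control it differed by -0.02 (SE 0.07, 95% interval -0.20 to 0.16), and this turned to 0.01 after a repeated quantile normalization. NestinCre control was below Flox control by 0.29 on the log2 scale (SE 0.07), and its other 2 probe sets, at means of 6.65 and 6.12, had NestinCre control lowest on average as well. Against both controls the 3 probe sets differed by 0.12 (SE 0.06), -0.05 (SE 0.13) and 0.03 (SE 0.08).

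Cspg4, a chondroitin sulphate proteoglycan of the precursor surface, was the dimmest member. It read 7.84 and 7.75 in NestinCre control, 7.96 and 7.70 in Flox control, and 7.72 and 7.99 in knockout. All groups overlapped, and the difference from both controls was 0.04 (SE 0.12, 95% interval -0.26 to 0.34). Its second probe set was dim, at 6.13 and 6.15 in knockout and 6.17 to 6.30 in the controls, and was lower by 0.09 on the log2 scale (SE 0.05). Pericytes also make Cspg4, and the 9 pericyte genes summed to 67.0% and 68.4% of the mean of 6 arrays in knockout against 109.5% to 125.2% in the controls. The median log2 difference of the 9 was smaller than these sums convey, at -0.20 against both controls. Cspg4 is itself 1 of the 9, and the part of pericytes in its values was not tested.

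Ptprz1, a receptor tyrosine phosphatase whose extracellular part carries chondroitin sulphate, had 3 bright probe sets that disagreed. The brightest read 11.25 and 11.37 in NestinCre control, 11.53 and 11.43 in Flox control, and 11.49 and 11.46 in knockout, a difference of 0.08 (SE 0.06) from both controls. The second probe set was lower in knockout, at 10.86 and 10.78 against 10.98 to 11.32 in the 4 controls, a difference of -0.25 (SE 0.11, limma adjusted p = 0.484). The third was higher, at 10.05 and 10.19 against 9.82 to 9.99 (0.22, SE 0.08, limma adjusted p = 0.415). These probe sets both separated knockout from all controls, in opposite directions, so the gene has no single direction here. The transcripts that each one reads were not analysed here.

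Lhfpl3, a tetraspan membrane protein used as a precursor marker, read 10.05 and 10.03 in NestinCre control, 10.26 and 10.18 in Flox control, and 10.11 and 10.05 in knockout. Flox control was highest without overlap. Knockout differed from both controls by -0.05 (SE 0.05) for this probe set. The second one was higher in knockout, at 8.47 and 8.57 against 8.31 to 8.47, by 0.13 (SE 0.08). Every measured gene with more than 1 probe set (Pdgfra, Cspg4, Sox10, Ptprz1 and Lhfpl3) had probe sets on either side of 0 against both controls.

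**Figure D2:**
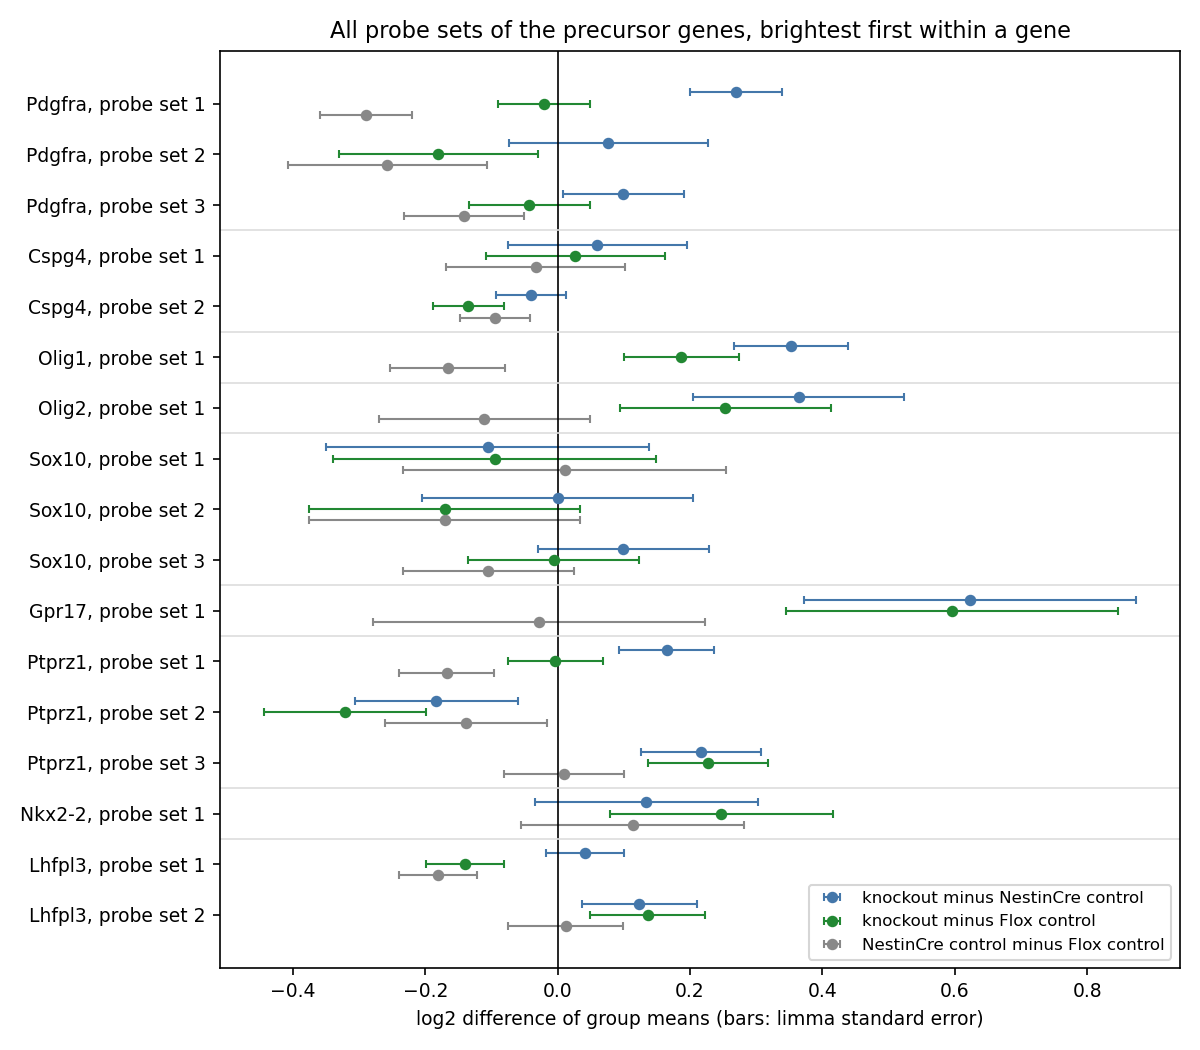
Log2 difference of group means (horizontal axis) for all 17 probe sets of the precursor genes (vertical axis), with bars of 1 limma standard error. Blue is knockout minus NestinCre control, green knockout minus Flox control and grey NestinCre control minus Flox control; Gpr17, Olig1 and Olig2 lie to the right for both knockout comparisons, and the 3 Ptprz1 probe sets point different ways.

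Counted together, 7 of the 9 measured genes were above 0 in knockout against both controls, with a median log2 difference of 0.12, where the median over all 18193 genes was -0.02 and 40.7% were above 0. Knockout lay above all controls without overlap for 3 of the 9, against 7.23% of all genes, and below them for 0, against 10.9%. At a limma unadjusted p under 0.05 there were 2 of 9, Olig1 and Gpr17, against 10.6% of all genes, and 0 passed after adjustment. Averaging all probe sets of a gene in place of the brightest lowered the median to 0.04 and turned the sign of Cspg4, to -0.02, and of Lhfpl3, to 0.04.

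The comparisons with each control share the knockout arrays, and their values stand side by side. Against NestinCre control, which differs in the floxed Pofut1 alleles, 8 of 9 genes were above 0 with a median of 0.16. Knockout lay above without overlap for 6 and below for 1, against 16% and 16.2% of all genes, and 2 had a limma unadjusted p under 0.05 against 6.12%. Those 2 were Olig1 (0.35, SE 0.09, unadjusted p = 0.00988) and Pdgfra. After adjustment 0 of the 17 probe sets passed, as did 0% of all probe sets. Gpr17 differed by 0.62 (SE 0.25) and Olig2 by 0.36 (SE 0.16). Olig2 rested on the NestinCre control arrays, at 0.13 without replicate 1 and 0.60 without replicate 2, and the median of the 9 genes became 0.11 and 0.25 in the same order.

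Against Flox control, which differs in Cre, 5 of 9 were above 0 with a median of 0.03. Knockout lay above without overlap for 3, Gpr17 (0.60, SE 0.25), Olig2 (0.25, SE 0.16) and Olig1 (0.19, SE 0.09), and below for Lhfpl3 (-0.14, SE 0.06). The shares of all genes were 15.5% above and 30.3% below. Gpr17 was at 0.27 without Flox control replicate 2 and at 0.92 without replicate 1, and Olig1 was at 0.12 without knockout replicate 2. By a limma unadjusted p under 0.05 there were 0 of 9 genes against 14.8%, although the second Ptprz1 probe set was at 0.0476. After adjustment 0 passed, against 0.00444% of all probe sets. This median became 0.23 without Flox control replicate 1, 0.09 with sex as a covariate and -0.0019 with the mean of all probe sets of a gene.

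The controls also differed from each other. NestinCre control was below Flox control for 7 of 9 genes, with a median of -0.11, which became -0.22 without NestinCre control replicate 2 or without Flox control replicate 2. It was lower without overlap for 4, Pdgfra, Olig1, Ptprz1 and Lhfpl3, against 30.4% of all genes, and higher for 0 against 11%. A limma unadjusted p under 0.05 was found for 2, Pdgfra (0.00902) and Lhfpl3 (0.0284), against 9.15%. None passed after adjustment, as in 0% of all probe sets, and the smallest limma adjusted p was 0.382. Gpr17, by contrast, had control means only 0.03 apart, within the spread of the arrays of either control.

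Arrays also differed within groups. NestinCre control replicate 1 was the lowest array for 4 of the 9 genes and Flox control replicate 2 for 4. Knockout replicate 2 was the highest for 4 and Flox control replicate 1 for 3. The summed intensity of the 9 genes was 88.9% and 96.4% of the mean of 6 arrays in NestinCre control, 109.2% and 95.2% in Flox control, and 104.9% and 105.4% in knockout. Flox control replicate 1 was therefore above both knockout arrays in the sum, which the bright Ptprz1, Sox10 and Olig1 dominate. With sex as a covariate, the knockout differences from both controls were 0.58 for Gpr17, 0.27 for Olig1 and 0.26 for Olig2, with limma adjusted p of 0.549, 0.454 and 0.627.

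The lineage was then followed beyond the members with lists of other genes, none of which passed adjustment in the limma test against both controls except a pericyte gene. Of 15 further precursor-enriched genes measured, 8 were above 0 and the median was 0.01. Rlbp1, a retinoid-binding protein, was lowest at -0.85 (SE 0.15, limma adjusted p = 0.224), with 7.58 and 7.78 in knockout against 8.36 to 8.92 in the controls. The matrix glycoprotein Tnr (0.25, SE 0.12), the complement-like C1ql1 (-0.18, SE 0.09) and the cadherin Pcdh15 (0.19, SE 0.10) came next by p. Of the 15, Tnr alone was above all controls and Rlbp1 alone below, shares near the 7.23% and 10.9% of all genes.

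Genes of newly formed oligodendrocytes came next. The list had 12 measured genes, 9 of them above 0, and its median was 0.04, while 4 lay above all controls without overlap and 0 lay below, against 7.23% and 10.9% of all genes. Bmp4, a secreted growth factor of committed precursors, read 6.93 and 7.02 in NestinCre control, 7.29 and 6.73 in Flox control, and 7.64 and 7.74 in knockout, a difference of 0.70 (SE 0.17, limma adjusted p = 0.284). Enpp6, a choline phosphodiesterase that marks oligodendrocytes about to myelinate, read 8.15 and 8.63, 8.37 and 8.68, and 9.24 and 8.94 in the same order (0.63, SE 0.18, limma adjusted p = 0.344). Both knockout arrays were highest for each. The tetraspanin Cd9 (0.33, SE 0.09) and the scaffold Frmd4a (0.08, SE 0.05) were the other 2. Itpr2, Bcas1, Rras2 and Sirt2 lay between -0.0066 and 0.03.

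Myelin genes were mostly slightly lower. The median of the 14 measured was -0.04, against -0.02 for all genes, and 1 of the 14 lay above 0, against 40.7% of all genes. Against Flox control their median was -0.12 and 8 of 14 were lower without overlap, against 30.3% of all genes. Against NestinCre control the median was -0.02 and 3 of 14 were lower without overlap, against 16.2%. NestinCre control was itself below Flox control for these genes, with a median of -0.09 and 7 of 14 lower without overlap, against 30.4%. Mbp (-0.03, SE 0.05), the myelin basic protein, and Mobp (-0.03, SE 0.05) differed little. Opalin, a glycoprotein of mature oligodendrocytes, was lower at 10.45 and 9.74 in knockout against 10.46 to 10.92 in the controls (-0.62, SE 0.22, limma adjusted p = 0.411). The knockout arrays were 0.71 apart for it. Mog (-0.21, SE 0.07), Fa2h (-0.19, SE 0.09) and Gjb1 (-0.33, SE 0.16) overlapped with the controls. The 14 genes summed to 97.1% and 96.6% in knockout, 96.7% and 101.3% in NestinCre control and 106.9% and 101.5% in Flox control.

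**Figure D3:**
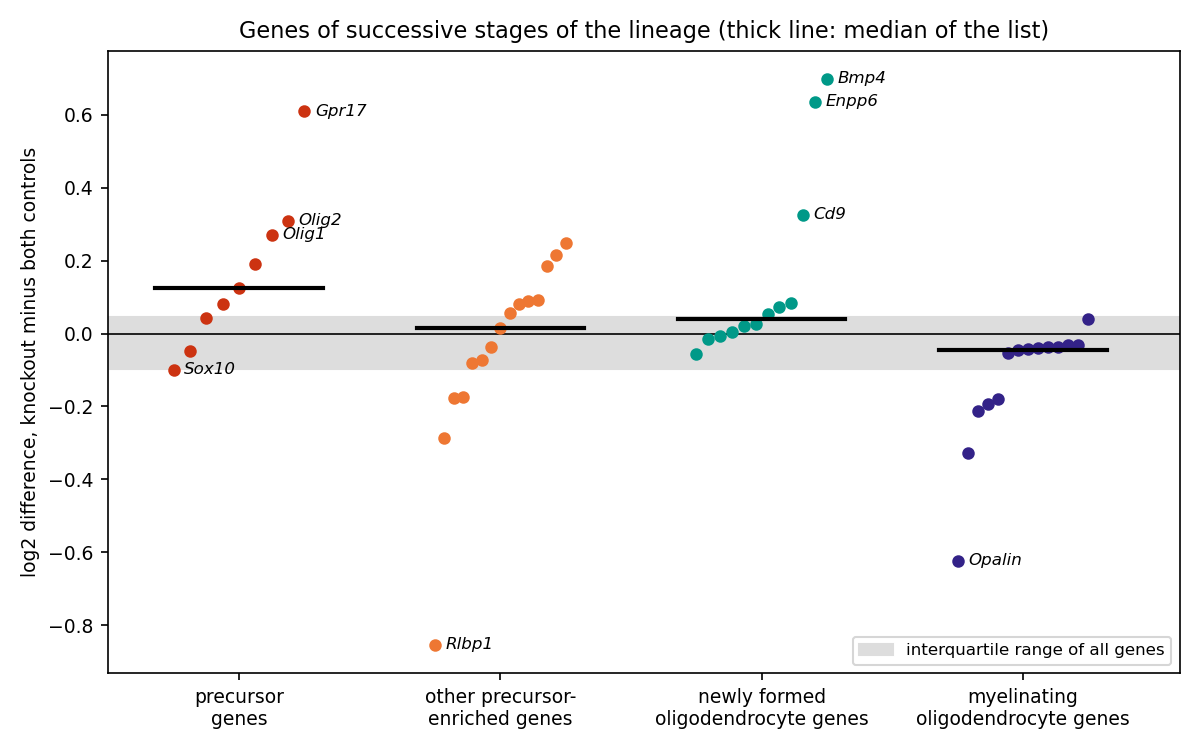
Log2 difference between knockout and both controls (vertical axis) for each gene of 4 lists of the oligodendrocyte lineage (horizontal axis), with thick lines at list medians and a grey band for the interquartile range of all genes. Gpr17, Olig1, Olig2, Bmp4, Enpp6 and Cd9 lie well above the band, and Rlbp1 and Opalin well below.

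Growth signals to precursors showed no common shift. Growth factors and receptors numbered 17, of which 8 were above 0, and their median was -0.0076. Pdgfa, the ligand of Pdgfra, differed by -0.06 (SE 0.08). Pdgfrb, the receptor of pericytes, was lowest at -0.74 (SE 0.12, limma adjusted p = 0.210), followed by p by the neuregulin gene Nrg1 (-0.34, SE 0.10), the receptor Fgfr3 (-0.26, SE 0.10) and Lif (-0.17, SE 0.08). These 4 of 17 were below all controls, against 10.9% of all genes, and the chemokine gene Cxcl1 (0.06, SE 0.05) was above them. The difference between the 2 PDGF receptors was not tested.

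The 18 transcription and chromatin regulators had a median of -0.07, and 12 lay below 0. Hes5, a Notch-induced repressor that restrains differentiation of precursors, read 6.19 and 6.52 in knockout against 7.45 to 8.04 in the controls (-1.38, SE 0.14, limma adjusted p = 0.120). Hes1 (-0.26, SE 0.07), Sox9 (-0.36, SE 0.12) and Sox5 (-0.16, SE 0.05) were also below all controls, as were 5 of the 18 in all against 10.9% of all genes. Myrf, the master regulator of myelin genes, was at 0.04 (SE 0.17) and Tcf7l2 at 0.0068 (SE 0.06). The members Olig1 and Olig2 stood on the other side of 0 from the 4 regulators with the smallest p, which were picked by that p. The member Sox10 was on the side of those 4, at -0.10, and 6 of the 18 regulators were above 0. A relation between them was not tested.

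Partners of 2 members were examined too. Ligands and partners of Ptprz1 had 4 of 9 genes above 0 and a median of -0.04. The adhesion molecule Nfasc (0.24, SE 0.08) and the kinase Fyn (0.19, SE 0.07) were above all controls, 2 of the 9 against 7.23% of all genes. Of the 9, 1 was below all controls, against 10.9%. Mdk (-0.17, SE 0.14) and Ctnnb1 (-0.05, SE 0.04) had differences below 0. The 3 sialidases related to Neu4 were Neu2 (-0.38, SE 0.19), Neu3 (0.13, SE 0.09) and Neu1 (-0.09, SE 0.08), and their groups overlapped.

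Marker genes of other cell types also differed in this comparison. All 9 microglia genes were above 0 in knockout, with a median of 0.13, near that of the precursor genes, and their sum was 104.1% and 107.8% in knockout against 93.2% to 104.4% in the controls. Pericyte genes were mostly lower, with 8 of 9 below 0 and a median of -0.20. Their median was -0.06 against NestinCre control, with 3 of 9 above 0, and -0.38 against Flox control, with 1 above 0. Rgs5 was the 1 gene of these lists that passed (-2.16, SE 0.08, limma adjusted p = 0.0263). Its limma adjusted p was 0.162 with the replicate block, 0.146 with sex as a covariate and 0.132 to 0.357 with any 1 array left out, while the difference stayed between -2.26 and -2.06. Astrocyte genes had a median of -0.12 with 7 of 10 below 0, though Gfap was higher (0.86, SE 0.07). Their sum ranged only from 99.2% to 100.7%, and that of neurons from 95.5% to 105.8%. For the 9 endothelial genes, 5 were below 0, and the sum was 102.8% and 106.6% in knockout and 94.7% to 98.8% in the controls. Fibroblast genes, which include Pdgfra, had 4 of 6 above 0, with sums of 102.2% and 103.4% in knockout and 84.8% to 105.5% in the controls. All 9 choroid plexus genes were below 0, with a median of -0.34, where 40.7% of all genes were above 0. Of these 9, 4 were below all controls, against 10.9% of all genes. They summed to 94.4% and 96.3% in knockout against 99.1% to 106.6% in the controls. All 7 pituitary genes were below 0 as well, with sums of 75.4% and 68.0% in knockout, 67.3% and 59.1% in NestinCre control, and 103.9% and 226.3% in Flox control. No marker was listed at 0 on these arrays, and the part of these cell types in the precursor values was not tested.

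**Figure D4:**
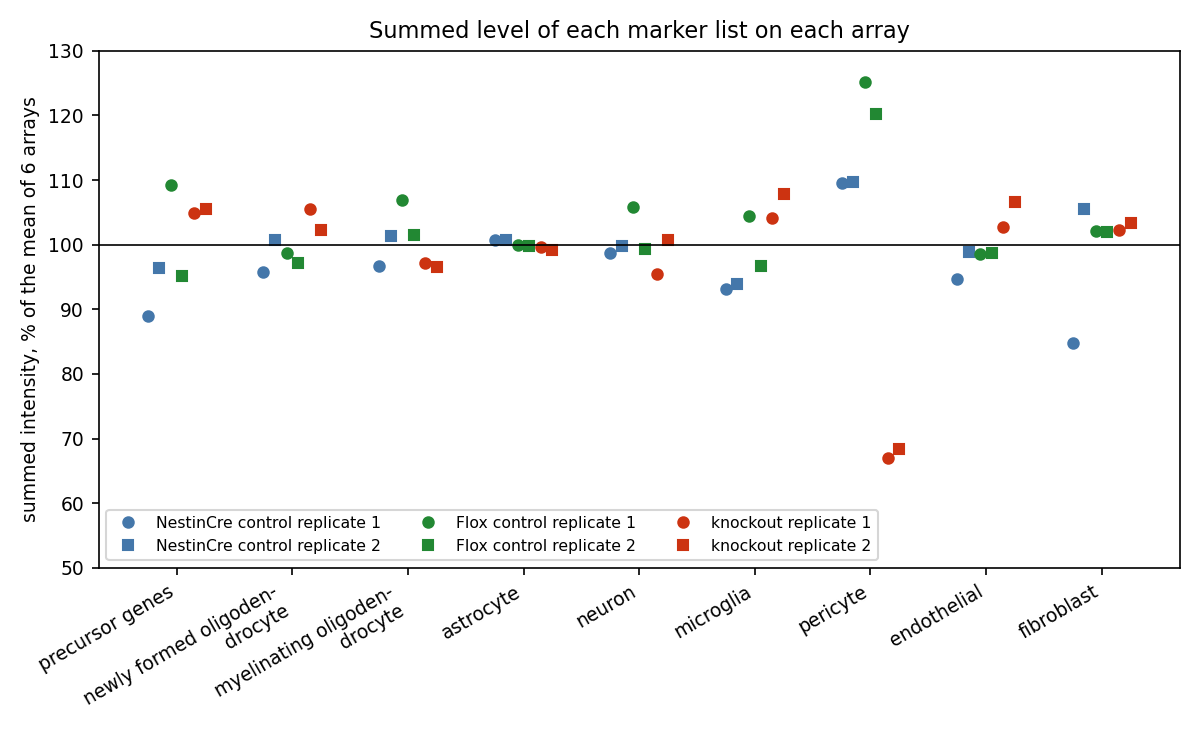
Summed intensity of each marker list on each array as a percentage of the mean of the 6 arrays (vertical axis, starting at 50%), for 9 lists (horizontal axis). Colours are genotype groups, circles replicate 1 and squares replicate 2; precursor genes are highest in Flox control replicate 1, whereas pericyte genes are at 67.0% and 68.4% in knockout and above 100% in all controls.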

How the data were processed

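Total RNA of 6 mouse brain samples was hybridised to 1 one-colour oligonucleotide array each, after amplification and biotin labelling of 25 ng by the Ovation system, per the labels' protocols. The authors deposited 1 linear intensity for each probe set on each array, from 38.0 to 19395. Per the submitters' processing notes, GCOS and RMA were used, with neither version nor order stated. RMA usually gives arrays 1 common distribution, which removes a shift shared by most genes and shrinks differences of dim probe sets.

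Log2 was taken of each intensity. The 64 control probe sets were left out, and 45037 were tested by limma (3.58.1, R 4.3.3), with a mean per group over all 6 arrays, eBayes without trend (3 residual degrees of freedom, 4.94 with the prior), and Benjamini-Hochberg adjustment over all probe sets at 0.05. SE stands for the standard error limma gives a log2 difference. Of the probe sets, 34945 had 1 gene symbol, 932 several and 9160 none listed. The members and gene lists were chosen with earlier results of these data known. The rule for named genes took every member and the 4 genes of each lineage list with the smallest p against both controls. Pdgfa, Myrf, Tcf7l2, Mbp, Mobp, Itpr2, Bcas1, Rras2 and Sirt2 were named outside it, after their values were seen, and Prl, Rgs5 and Gfap as markers. P-values reflect only how far these samples spread, in part perhaps technically, and 2 arrays per group limit the precision. Simulated data with known changes were used to test the fit. Alternatives are given in the closing section.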

Additional observations from a re-analysis of the deposited data

How the results depend on the processing

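In each of the 4 comparisons 0 of the 17 member probe sets passed adjustment, and this held under all alternatives run: normalization, centring, a brightness filter, 2 variance priors, only the groups compared (not run against both controls, where these are all groups), the replicate block, log2 of the value plus 16, control probe sets kept, sex as a covariate, and each array left out. The smallest limma adjusted p of a member was 0.227, against Flox control. Gpr17, Olig1 and Olig2 stayed above both controls and each control under all of these. Against both controls, leaving out arrays gave 0.45 to 0.77 for Gpr17, 0.20 to 0.34 for Olig1 and 0.19 to 0.43 for Olig2. Against NestinCre control the ranges were 0.43 to 0.81, 0.28 to 0.42 and 0.13 to 0.60, and against Flox control 0.27 to 0.92, 0.12 to 0.26 and 0.21 to 0.30, in the same order.

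The members' median, with 1 array left out, ranged from 0.11 to 0.25 against NestinCre control, from 0.0149 to 0.23 against Flox control (0.23 without Flox control replicate 1; -0.0019 with the mean of all probe sets and 0.0897 with sex as a covariate) and from -0.22 to -0.0797 for NestinCre control against Flox control (-0.22 without NestinCre control replicate 2 and without Flox control replicate 2). Signs turned for small differences, and the cause was not tested. With the mean of all probe sets of a gene, Cspg4 was -0.022 and Lhfpl3 0.040 against both controls, Cspg4 -0.054 against Flox control, and Sox10 -0.088 between the controls. A repeated quantile normalization gave Pdgfra 0.010 and Ptprz1 0.013 against Flox control, and centring gave Sox10 -0.012 between the controls. Sex as a covariate gave Cspg4 0.060, Sox10 -0.026 and Nkx2-2 -0.044 between the controls. With 1 array left out, values against both controls ran from -0.28 to 0.084 for Sox10, -0.095 to 0.18 for Cspg4 and -0.0061 to 0.39 for Nkx2-2. Against NestinCre control they ran from -0.063 to 0.33 for Nkx2-2 and -0.079 to 0.20 for Cspg4. Against Flox control they ran from -0.46 to 0.27 for Sox10, -0.056 to 0.049 for Ptprz1, -0.065 to 0.023 for Pdgfra and -0.11 to 0.17 for Cspg4. Between the controls they ran from -0.34 to 0.12 for Olig2, -0.35 to 0.30 for Gpr17, -0.16 to 0.099 for Cspg4, -0.0050 to 0.23 for Nkx2-2 and -0.36 to 0.38 for Sox10.

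Deviations of same-numbered arrays from their group means correlated at 0.19, -0.31 and -0.24 for the 3 pairs of groups. With 2 arrays per group these values cannot decide whether replicate numbers pair the arrays. With the replicate block 0 member probe sets passed in any comparison, as without it, and 0 of all probe sets passed against both controls in place of 7. Other counts over all probe sets against both controls were 22 after centring, 34 among brighter probe sets, 135 and 202 with the trended and robust priors, 49 of all genes by their mean probe set, 0 with sex, and 0 to 1 with an array left out. Against NestinCre control the count of 0 became 9, 11, 39, 72 and 19 in that order up to the mean probe set, and 1 with only the groups compared. Against Flox control the count of 2 became 9, 23, 162, 325 and 33, and 0 with repeated quantile normalization, the value plus 16, only the groups compared, the block, sex or any array left out. Between the controls the count of 0 became 1 and 6 with the 2 priors and at most 2 with an array left out.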
